A study of Homo sapiens with 8 samples.

Results

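The 10 genes described here, IL33, IL18, IL1A, IL1B, CXCL8, CXCL1, CXCL3, CXCL2, CCL20 and NFKBIA, encode cytokines and chemokines that epithelial cells can release and the inhibitor of the factor that switches many of them on. They were chosen by name, with earlier results of these data known, and all 10 were found among the 20162 protein-coding genes of GENCODE on GRCh37. For each gene, the peaks of 8 CUT&Tag libraries were collected within 2 kb of the transcription start site (TSS), in the gene body and up to 50 kb on either side. In CUT&Tag, an antibody brings a transposase to its target on chromatin, and the fragments that the enzyme cuts out are sequenced. The libraries came from HCT15, an established human colorectal cancer line, and profiled succinylation of lysine 23 of histone H3 (H3K23su) and acetylation of lysine 27 (H3K27ac). For each mark there were 2 libraries of the parental line, HCT15-Pa, labelled as treated with the solvent DMSO, and 2 of the derived line HCT15-FR, which resists the pyrimidine analog 5-fluorouracil (5-FU) and is labelled with 20 μg/mL of the drug. Per the study's methods, HCT15-FR cells were kept in medium without 5-FU for some days before experiments. No other genotype or agent was named for either line. The study had 1 resistant line and its parent, so resistance, drug exposure and any other difference between the lines cannot be told apart, and the labels do not say that replicates were separate cultures.

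IL33, IL18, IL1A and IL1B belong to the interleukin-1 family. IL33 and IL1A can act as alarmins that damaged epithelium sets free, whereas the precursors of IL18 and IL1B are cut by inflammasome caspases before release. CXCL8, CXCL1, CXCL2 and CXCL3 attract neutrophils through the receptor CXCR2, and CCL20 attracts lymphocytes and dendritic cells that carry CCR6. The transcription factor NF-κB binds the promoters of many of these genes, and NFKBIA encodes IκBα, which holds NF-κB in the cytoplasm and is itself an NF-κB target. H3K27ac marks active promoters and enhancers, and histone succinylation has likewise been found at the start sites of transcribed genes. AP-1, a dimer of FOS and JUN family proteins, binds many enhancers in epithelial cells.

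Each list held 65364 to 68365 peaks for H3K23su and 70600 to 76676 for H3K27ac, and the deposited lists give no read depth. The HCT15-FR lists covered more of the genome, with 39.4 and 40.0 Mb against 33.0 and 33.5 Mb in HCT15-Pa for H3K23su, and 46.3 and 46.6 Mb against 38.8 and 39.5 Mb for H3K27ac. Peaks of the 4 libraries of a mark were merged into regions. A region was called FR-only when the HCT15-FR libraries both had a peak in it and the HCT15-Pa libraries had none, Pa-only in the reverse case, and shared when all 4 had a peak. The score of a peak is the −log10 of the P value that the authors obtained from MACS2, with a lowest value between 2.896 and 3.07 in the 8 lists, and its rank is the percentile of that score within its own list. The markers of colon epithelium had a TSS peak in all 4 libraries at 6 of 9 genes for H3K23su and 7 of 9 for H3K27ac, and each of the 9 had a peak in at least 1 library. Of these markers, CDX1 had an FR-only region at the TSS for both marks and KRT20 for H3K27ac, with no TSS peak in HCT15-Pa, and the part of such differences in the results was not tested. Of the 5 leukocyte markers none had a TSS peak in all 4 libraries and 4 had no H3K23su peak and 3 no H3K27ac peak in any library, and both fibroblast markers had none of either mark. CDH5, the endothelial marker that was found, had a TSS peak in 1 library of each mark.

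Some promoters of these genes hold matches to short sequences that NF-κB and AP-1 can bind. Stretches of those promoters are given here from GRCh37, 5′ to 3′ along the gene, outside annotated exons. Capitals mark matches to the NF-κB consensus, to its 9-letter core GGAATTTCC or to the AP-1 core TGACTCA, each searched on both strands. The core lies inside many matches to the consensus, so the 2 overlap. CXCL1 at chr4:74734960-74735109 and CXCL2 at chr4:74964914-74965062 (minus strand) show how alike the GRO chemokine promoters are, and CXCL3 at chr4:74904466-74904495 (minus strand) is given only around the site because an annotated exon covers it. CXCL8 at chr4:74606136-74606235 has both kinds of site, NFKBIA at chr14:35873956-35874105 (minus strand) has the NF-κB site of the inhibitor, CCL20 at chr2:228678408-228678537 has one without a peak of either mark, and IL1A at chr2:113542071-113542220 (minus strand) has an AP-1 site.
CXCL1: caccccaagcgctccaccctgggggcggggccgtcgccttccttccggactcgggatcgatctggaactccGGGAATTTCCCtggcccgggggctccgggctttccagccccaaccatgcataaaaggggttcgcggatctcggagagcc
CXCL2: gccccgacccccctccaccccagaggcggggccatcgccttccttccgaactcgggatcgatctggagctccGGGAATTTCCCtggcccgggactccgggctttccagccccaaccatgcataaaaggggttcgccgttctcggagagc
CXCL3: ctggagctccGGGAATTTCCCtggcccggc
CXCL8: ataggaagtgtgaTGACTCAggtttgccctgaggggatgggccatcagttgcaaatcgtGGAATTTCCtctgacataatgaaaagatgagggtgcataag
NFKBIA: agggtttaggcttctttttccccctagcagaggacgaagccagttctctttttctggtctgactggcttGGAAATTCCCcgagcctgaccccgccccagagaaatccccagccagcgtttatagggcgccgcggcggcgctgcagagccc
CCL20: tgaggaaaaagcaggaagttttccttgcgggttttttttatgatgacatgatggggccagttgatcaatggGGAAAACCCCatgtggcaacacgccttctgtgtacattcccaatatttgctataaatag
IL1A: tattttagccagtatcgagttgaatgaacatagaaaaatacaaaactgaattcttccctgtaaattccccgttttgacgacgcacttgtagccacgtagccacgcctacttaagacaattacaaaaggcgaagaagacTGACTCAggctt

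In the 300 bases from 250 before to 50 after the canonical TSS, the 9-letter core GGAATTTCC was present at 5 of the 10 genes, CXCL8, CXCL1, CXCL3, CXCL2 and NFKBIA, and in 0.373% of 19862 promoters of the same length. It started 77 or 78 bases before the TSS at CXCL1, CXCL3 and CXCL2, 81 bases before it at NFKBIA and 91 bases before it at CXCL8. The longer NF-κB consensus was found at CXCL1, CXCL3, CXCL2, NFKBIA and CCL20, and in 6.55% of all promoters. AP-1 cores were found at IL1A and CXCL8, and in 3.56% of all promoters. The promoters of IL33, IL18 and IL1B held no match to any of these sequences. The letters of the core were chosen after the promoters had been read, so these counts are descriptions, and a match is not a bound site. The promoters of CXCL1, CXCL3, CXCL2 and NFKBIA held between 62.0% and 66.3% G and C, near the median of 63.7% over all promoters, whereas those of the other 6 genes held between 39.3% and 48.0%. CXCL1 and CXCL3 were identical at 82.5% of aligned promoter positions, CXCL2 and CXCL3 at 73.8% and CXCL1 and CXCL2 at 71.9%, with identical runs of at most 42 bases.

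H3K23su peaks stood at the TSS of IL18, CXCL1, CXCL3, CXCL2 and NFKBIA in all 4 libraries, which is 5 of the 10 genes against 52.5% of all protein-coding genes. H3K27ac peaks stood there in all 4 libraries at the same 5 genes and at CXCL8, which is 6 of 10 against 57%. Both shares lie near those of all genes. IL33 and CCL20 had no peak of either mark in any library at the outermost annotated start, which is the TSS used here. CCL20 had none at its canonical TSS either, which lies 8103 bp downstream of that start. With any annotated transcript start allowed, 6 genes in place of 5 had an H3K23su peak in all 4 libraries, and 6 still had an H3K27ac peak. A missing peak says that the mark was not detectable at the authors' threshold, not that it was absent.

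**Figure D1:**
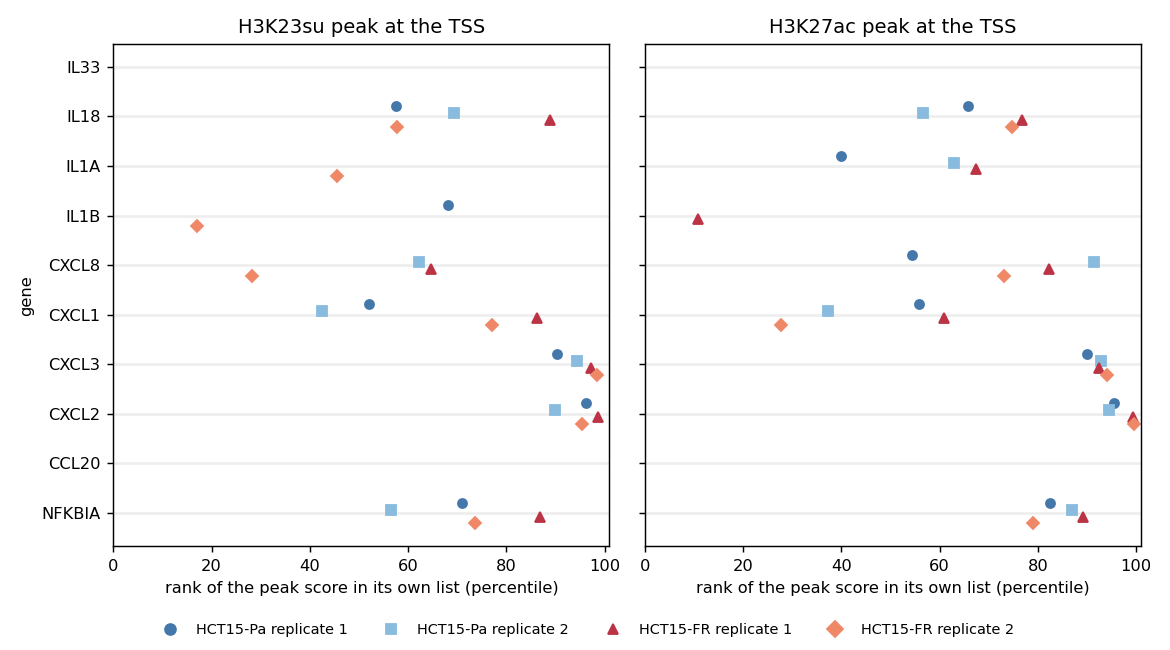
Rank of the strongest peak within 2 kb of the TSS, as a percentile of the scores in its own list, for each gene (rows) and library (symbols), with H3K23su on the left and H3K27ac on the right. A gene without a symbol had no peak in that library. CXCL2 and CXCL3 lie furthest right in both panels, with 1 exception for H3K27ac. There, CXCL8 in HCT15-Pa replicate 2 (91.4) lies to the right of CXCL3 in HCT15-Pa replicate 1 (89.9). The rows of IL33 and CCL20 are empty.

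CXCL2, a neutrophil chemokine, had the strongest TSS peaks of the 10 genes for H3K27ac. Its H3K27ac scores were 12.6 and 12.0 in HCT15-Pa and 25.2 and 27.4 in HCT15-FR. The HCT15-FR scores were both above the HCT15-Pa scores, and the ranks moved from 95.6 and 94.4 to 99.3 and 99.5. Its H3K23su scores were 8.05 and 6.60 in HCT15-Pa and 11.6 and 9.12 in HCT15-FR, where the ranks of the lines overlapped, at 96.3 and 89.9 against 98.7 and 95.4. The merged regions of both marks covered the promoter stretch printed above.

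CXCL3 had H3K23su scores of 6.61 and 7.53 in HCT15-Pa and 10.3 and 11.3 in HCT15-FR, with ranks of 90.4 and 94.4 against 97.3 and 98.4. Both HCT15-FR libraries lay above both HCT15-Pa libraries, but fewer bases within 2 kb of the TSS were covered, at 1275 and 995 bp against 1854 and 1336 bp. Its H3K27ac scores of 9.26 and 11.01 against 12.6 and 13.6 did not overlap, whereas the ranks did, at 89.9 and 93.0 against 92.4 and 94.0. CXCL1 showed the same combination for H3K23su. Its scores were 4.41 and 4.17 in HCT15-Pa and 6.98 and 5.98 in HCT15-FR, with ranks of 52.1 and 42.4 against 86.3 and 77.0, and its peaks covered 1226 and 1295 bp against 1031 and 697 bp. The CXCL1 peaks were shorter and higher ranked in both HCT15-FR libraries. For H3K27ac the CXCL1 scores overlapped, at 4.56 and 3.97 against 5.49 and 3.84.

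CXCL8, which encodes interleukin-8, had an H3K27ac peak at the TSS in every library, with scores of 4.50 and 10.2 in HCT15-Pa and 8.57 and 6.77 in HCT15-FR that overlapped between the lines. For H3K23su, HCT15-Pa replicate 1 had no TSS peak, HCT15-Pa replicate 2 had a score of 4.74, and the HCT15-FR libraries had 5.17 and 3.95. One of the H3K23su regions here was FR-only, at chr4:74605360-74605711 and 700 bp upstream of the TSS, with scores of 4.56 and 3.95 and ranks of 50.2 and 28.3. It lay within an H3K27ac region that all 4 libraries shared. The second H3K23su region, over the TSS, was present in 3 libraries, so the mark was not limited to HCT15-FR at this promoter. These regions lay within 500 bp of each other. Merging within 500 bp therefore joins them, and the joined region is not FR-only. CXCL8 was the only 1 of the 10 genes with an FR-only region of either mark within 2 kb of the TSS. Over all protein-coding genes, 3.46% had an FR-only H3K23su region there and 2.64% an FR-only H3K27ac region. None of the 10 genes had a Pa-only region there, against 2.04% of genes for H3K23su and 2.52% for H3K27ac.

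IL18, whose protein induces interferon-γ, had H3K27ac scores of 5.12 and 4.66 in HCT15-Pa and 7.43 and 7.02 in HCT15-FR, with ranks of 65.8 and 56.6 against 76.8 and 74.7, and the lines did not overlap. Its H3K23su scores did overlap, at 4.57 and 5.01 against 7.39 and 4.87, with HCT15-FR replicate 1 alone above the rest. NFKBIA had H3K23su scores of 5.07 and 4.55 in HCT15-Pa and 7.07 and 5.73 in HCT15-FR, with ranks of 70.9 and 56.5 against 86.9 and 73.7, without overlap. Its H3K27ac scores overlapped, at 7.13 and 8.45 against 10.9 and 7.78. IL1A and IL1B had scattered TSS peaks. IL1A had an H3K27ac peak in 3 libraries, with scores of 4.004 and 4.999 in HCT15-Pa and 6.08 in HCT15-FR replicate 1, and an H3K23su peak in HCT15-FR replicate 2 alone, of 4.43. IL1B had H3K23su peaks in HCT15-Pa replicate 1 and HCT15-FR replicate 2, of 4.95 and 3.68, and for H3K27ac a peak in HCT15-FR replicate 1 that reached 4 bp into the window.

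Beyond the promoters, the windows of the 10 genes held 79 H3K23su regions and 87 H3K27ac regions, each counted once. The windows join into 8 stretches of 1009 kb in all, because IL1A lies beside IL1B and CXCL3 beside CXCL2, and 15 H3K23su and 14 H3K27ac regions fell in the windows of 2 genes. Of the H3K23su regions, 24 were shared, 6 were FR-only and 1 was Pa-only, and 32 were found in a single library. The FR-only share of 7.59% compares with 7.95% of all H3K23su regions, and the Pa-only share of 1.27% with 5.01%. Of the H3K27ac regions, 29 were shared, 8 were FR-only and 4 were Pa-only, and 33 were found in a single library. Here 9.20% were FR-only against 9.08% of all H3K27ac regions, and 4.598% Pa-only against 4.53%. 3 of these 4 shares thus lay close to those of the genome as a whole. Leaving out a library eases the rule for a region and raised the FR-only H3K23su count to 11, 10, 18 and 12 without HCT15-Pa replicates 1 and 2 and HCT15-FR replicates 1 and 2 in turn, and the FR-only H3K27ac count to 11, 12, 18 and 20. In the same order the Pa-only counts became 5, 12, 5 and 2 for H3K23su, which without HCT15-Pa replicate 2 is more than the FR-only count of 10, and 11, 12, 7 and 4 for H3K27ac.

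Counted by gene, 6 of the 10 had an FR-only H3K23su region in the window, namely IL33, IL1A, IL1B, CXCL8, CXCL3 and CXCL2, against 48.6% of all protein-coding genes, and 1, CXCL3, had a Pa-only region, against 35.6%. For H3K27ac, 6 had an FR-only region, namely IL33, IL18, IL1A, IL1B, CXCL3 and CXCL2, against 53.4%, and 4, IL1A, IL1B, CXCL3 and NFKBIA, had a Pa-only region, against 33.9%. No line-specific region of either mark lay in the windows of CXCL1 or CCL20. The H3K23su regions overlapped an H3K27ac region at 60 of 79, or 75.9%, against 63.4% of all H3K23su regions. An H3K27ac region that was itself shared lay over 21 of the 24 shared H3K23su regions, or 87.5% against 80.3% of all such regions. Among the 6 that were FR-only for H3K23su, 2 coincided with regions also FR-only for H3K27ac, or 33.3% against 35.8% in the genome.

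Those 2 regions lay upstream of the alarmin genes IL33 and IL1A. The IL33 region lay 17.5 kb upstream of the TSS in intergenic sequence, at chr9:6197591-6199053 for H3K23su and chr9:6197606-6199030 for H3K27ac. Its H3K23su scores in HCT15-FR were 5.75 and 4.01, with ranks of 74.3 and 30.6, and its H3K27ac scores were 4.98 and 4.74, with ranks of 54.2 and 50.3. The HCT15-Pa libraries had no peak of either mark there. The IL1A region lay 19.7 kb upstream of the TSS in intergenic sequence. Its H3K23su scores were 4.28 in both HCT15-FR libraries, below the middle of their lists at ranks of 41.1 and 40.7, and its H3K27ac scores were 7.16 and 7.28, at ranks of 75.2 and 76.3. Since the windows of IL1A and IL1B overlap, the same region also lay 32.6 kb downstream of the IL1B start.

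The 300 bases around the middle of the stretch that all 4 HCT15-FR lists covered are given for the IL33 region, on the plus strand, at chr9:6198279-6198578, with any matches in capitals as above.
IL33 upstream: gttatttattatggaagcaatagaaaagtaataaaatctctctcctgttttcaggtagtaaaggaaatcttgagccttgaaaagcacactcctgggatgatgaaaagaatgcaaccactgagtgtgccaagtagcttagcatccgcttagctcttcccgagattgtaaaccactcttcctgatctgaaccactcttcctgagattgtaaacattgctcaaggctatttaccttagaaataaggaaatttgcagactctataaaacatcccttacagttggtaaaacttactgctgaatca
The IL33 stretch held neither the AP-1 core nor the NF-κB consensus or its core. Over windows of 300 bases at the midpoints of all H3K23su regions, the AP-1 core was present in 10.3%, and over those of the FR-only regions in 16.8%. The NF-κB consensus was present in 5.34% and 4.07% of the same windows. These shares were not computed for Pa-only regions, so a difference from all regions is not shown to be particular to FR-only regions.

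**Figure D2:**
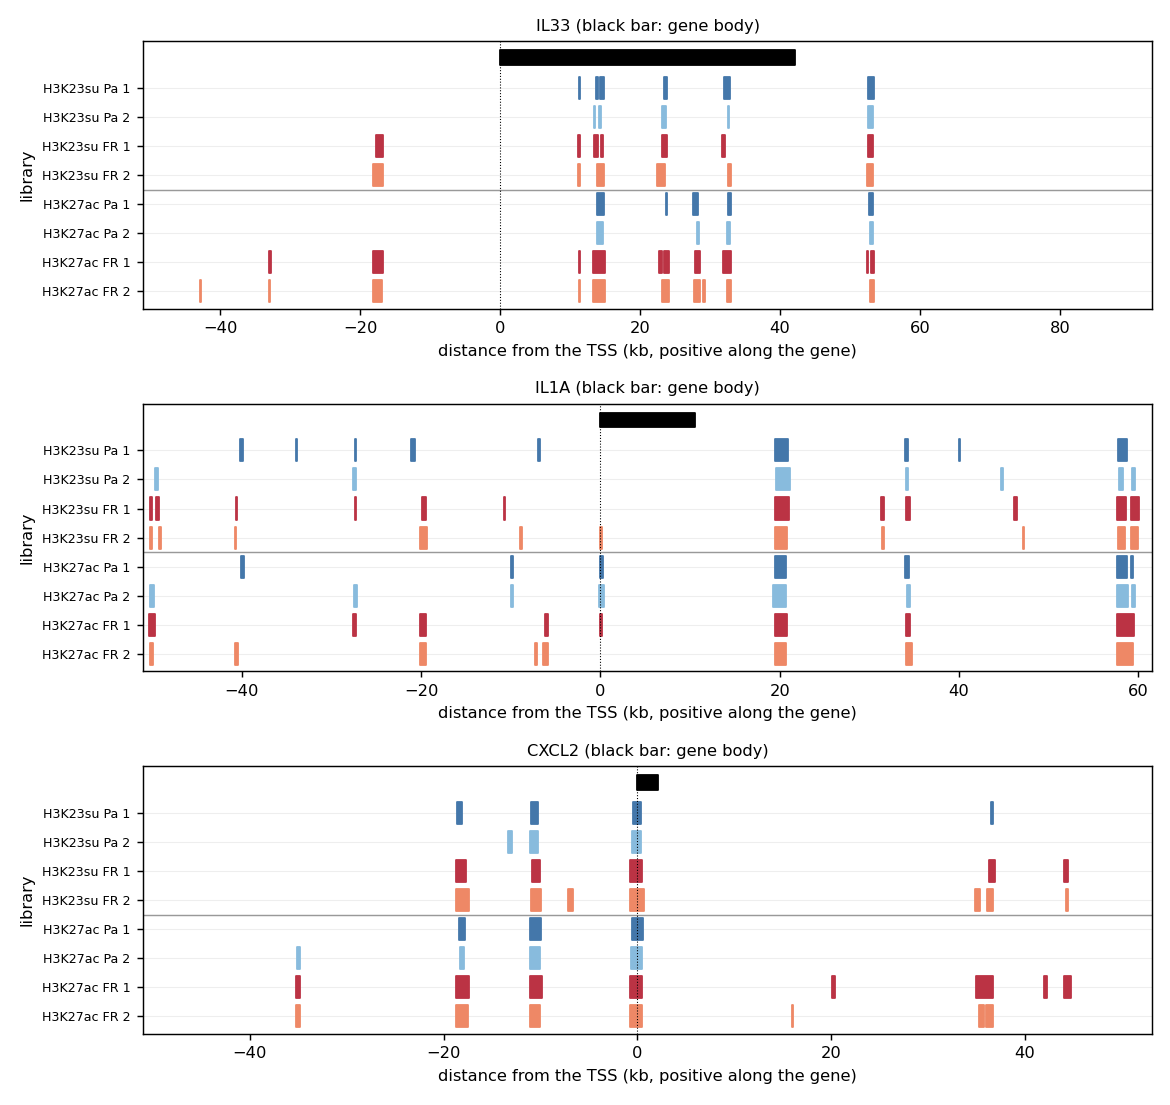
Peaks of the 8 libraries (rows) around IL33, IL1A and CXCL2, as distance from the TSS in kb, positive in the direction of transcription, with the gene body as a black bar and H3K23su above and H3K27ac below the grey line. At IL33 and IL1A, the peaks 17.5 kb and 19.7 kb upstream are drawn in the HCT15-FR rows of both marks and in no HCT15-Pa row.

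IL33 had 2 further FR-only H3K27ac regions, 32.9 kb upstream of the TSS and 11.3 kb downstream of it in an intron. The second overlapped an H3K23su region that was present in HCT15-Pa replicate 1 and in both HCT15-FR libraries. A region shared by all libraries 14.1 kb into the gene had H3K27ac scores of 5.18 and 4.52 in HCT15-Pa and 16.4 and 16.0 in HCT15-FR. The HCT15-FR libraries were far above the HCT15-Pa libraries there, with ranks of 96.6 and 96.4 against 66.6 and 53.6. The H3K23su scores of the same place overlapped, at 3.87 and 4.73 against 4.43 and 4.57. Another intronic region, 23.2 kb into the gene, went the other way for H3K23su. Its H3K23su ranks were 48.1 and 58.1 in HCT15-Pa and 17.8 and 25.1 in HCT15-FR. H3K27ac peaks that overlapped it ranked higher in HCT15-FR, at 73.3 and 78.4. For that mark, HCT15-Pa replicate 1 had a rank of 17.1 and HCT15-Pa replicate 2 no peak. At IL1A, an FR-only H3K27ac region lay 6.13 kb upstream, with scores of 3.90 and 3.997, and a Pa-only region lay 9.87 kb upstream, with scores of 3.71 and 4.30. The 2 FR-only H3K23su regions left in these windows had low scores, of 3.33 and 4.52 in an intron of CKAP2L and of 3.59 and 4.49 at 11.7 kb downstream of the IL1B start. The 2 FR-only H3K27ac regions in the IL18 window lay 56.3 kb and 43.5 kb downstream of its TSS, in introns of a readthrough gene on the other strand, and the first also in an intron of SDHD.

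In the CXCL3 and CXCL2 windows, which overlap, an FR-only H3K23su region lay 16.2 kb upstream of CXCL3, with scores of 4.61 and 5.76, and an FR-only H3K27ac region 24.5 kb upstream, with scores of 5.36 and 8.08. A region shared by all H3K27ac libraries lay 18.1 kb upstream of CXCL2, in an intron of MTHFD2L, which encodes a mitochondrial folate enzyme. This region was closer to the MTHFD2L start than to that of CXCL2, and which gene it acts on was not tested. The H3K27ac scores of the region were 4.10 and 4.58 in HCT15-Pa and 17.2 and 18.3 in HCT15-FR. Its ranks were 43.0 and 55.0 against 97.1 and 97.7. Its H3K23su scores were 3.67 in HCT15-Pa replicate 1 and 5.997 and 6.05 in HCT15-FR, with no peak in HCT15-Pa replicate 2. Another shared region, 10.5 kb upstream of CXCL2 and also closer to the MTHFD2L start, had overlapping H3K27ac scores. They were 10.6 and 10.9 against 10.4 and 11.5. The Pa-only region of this window covered the TSS of CXCL5, a further neutrophil chemokine, at chr4:74863945-74864727, and was Pa-only for both marks. Its H3K23su scores were 5.05 and 5.37 and its H3K27ac scores 5.16 and 7.95, and in the genome 19.8% of regions Pa-only for H3K23su coincided with ones Pa-only for H3K27ac. Other peaks stood within 2 kb of the CXCL5 TSS in HCT15-FR. For H3K27ac a second region there had scores of 5.30 and 4.05 in HCT15-FR and 3.16 in HCT15-Pa replicate 1, and for H3K23su each HCT15-FR library had a peak of its own, with scores of 4.98 and 3.98.

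CCL20 had 8 H3K23su and 11 H3K27ac regions in its window, of which 3 and 5 were shared, all outside the gene. The nearest shared H3K23su region upstream lay 8.95 kb from the start. Its scores overlapped, at 6.05 and 5.74 in HCT15-Pa and 6.06 and 4.67 in HCT15-FR. Its ranks were lower in both HCT15-FR libraries, at 85.9 and 82.1 against 78.1 and 52.5. The nearest shared H3K23su region downstream, at 12.8 kb, had scores of 3.60 and 3.89 against 4.37 and 5.83, with both HCT15-FR libraries higher. A region 34.0 kb downstream had H3K27ac scores of 5.82 and 5.75 against 3.36 and 3.85, which was lower in both HCT15-FR libraries, with ranks of 73.8 and 72.2 against 10.4 and 28.1. The NFKBIA window held 10 H3K23su regions, of which 6 were shared, and 15 H3K27ac regions, of which 5 were shared. Its 2 Pa-only H3K27ac regions lay 51.6 kb downstream and 18.1 kb upstream of the TSS, with scores of 3.98 and 4.596 and of 3.17 and 4.76.

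Among the shared regions in all windows, 9 of 24 for H3K23su ranked higher in both HCT15-FR libraries than in both HCT15-Pa libraries and 3 ranked lower, or 37.5% and 12.5%, against 25.4% and 18.5% of all shared H3K23su regions. For H3K27ac, 9 of 29 ranked higher and 6 lower, or 31.0% and 20.7%, against 26.4% and 25.5%. At the TSS, the ranks were higher in both HCT15-FR libraries for CXCL1, CXCL3 and NFKBIA with H3K23su and for IL18 and CXCL2 with H3K27ac, and lower at none. The same shares over the TSSs of all genes were not computed, so these genes cannot be set against the genome. These ranks carry no count of reads, and no test was made over the regions.

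**Figure D3:**
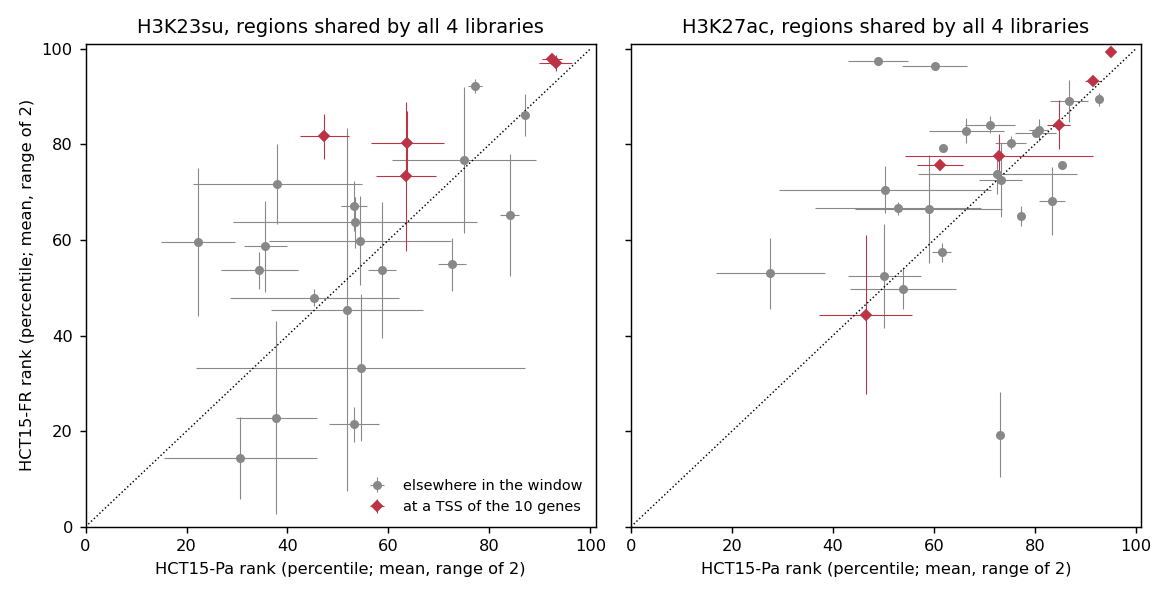
Rank of each shared region in the windows of the 10 genes, HCT15-Pa on the horizontal and HCT15-FR on the vertical axis, as the mean of 2 libraries with lines to both values; red diamonds lie at a TSS and the dotted line marks equal ranks. In the H3K27ac panel, the intronic IL33 region and the MTHFD2L intron region upstream of CXCL2 stand highest above the dotted line.

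The length covered by peaks in a window was compared between the lines with an exact permutation test (two-sided). With 2 libraries in each line, 0.333 is the smallest p that it allows. H3K23su peaks covered more bases in both HCT15-FR libraries than in both HCT15-Pa libraries at 6 genes, IL33, IL18, IL1A, IL1B, CXCL8 and CXCL2, and fewer at CXCL1, each with an exact permutation p of 0.333. Over all protein-coding genes, 48.1% were higher and 12.2% lower in this sense. H3K27ac peaks covered more at 6 genes, IL33, IL18, IL1A, IL1B, CXCL3 and CXCL2, and fewer at CXCL1 and NFKBIA, against 48.2% and 13.1% of all genes. The median ratio of HCT15-FR to HCT15-Pa was 1.31 over the 10 genes and 1.20 over all genes for H3K23su, and 1.35 and 1.14 for H3K27ac. Taken as a share of the length that each library covered in all, H3K23su was higher in both HCT15-FR libraries at IL33, IL18 and CXCL2 and lower at CXCL1, CCL20 and NFKBIA, and H3K27ac was higher at IL33, IL18, IL1B and CXCL2 and lower at CXCL1 and NFKBIA. With the stronger 50% of each list, 1 gene in place of 6 was higher for H3K23su and 5 were for H3K27ac. For the share of covered length and for the stronger 50%, the share of all protein-coding genes was not computed. These counts therefore have no genome value beside them.

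IL33 had 3200 and 2084 bp under H3K23su peaks in HCT15-Pa and 4283 and 5252 bp in HCT15-FR, which is 2642 ± 789 against 4768 ± 685 bp (SD, n = 2). Under H3K27ac peaks it had 3112 and 2188 bp against 7316 and 6697 bp, a ratio of 2.64. IL18 had 1579 and 2092 bp against 2801 and 3523 bp for H3K23su, and 1855 and 1394 bp against 4237 and 4840 bp for H3K27ac, a ratio of 2.79. The lines did not overlap at either gene for either mark. CXCL2 had 2284 and 2199 bp against 4133 and 5404 bp for H3K23su, and 2709 and 2889 bp against 7202 and 5143 bp for H3K27ac, with ratios of 2.13 and 2.21. IL33, IL18 and CXCL2 were the 3 genes that stayed higher in both marks as a share of covered length. In the stronger 50% of each list, their H3K23su differences fell from 2125.5 to 407 bp, from 1326.5 to 567 bp and from 2527 to 1486 bp. CXCL1, whose window held 1 H3K23su region, had 1226 and 1295 bp against 1031 and 697 bp for H3K23su and 1420 and 1680 bp against 969 and 1229 bp for H3K27ac, and was lower in HCT15-FR. Its difference turned to 251 bp higher for H3K23su in the stronger 50% of each list, and to 206.5 bp and 664 bp higher for H3K23su and H3K27ac with 100 kb on either side. NFKBIA had 6921 and 6651 bp against 5422 and 5191 bp for H3K27ac, without overlap, and 5881 and 4550 bp against 4520 and 5179 bp for H3K23su, with overlap.

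IL1A had 4148 and 3630 bp against 5959 and 4632 bp for H3K23su and 3785 and 4826 bp against 5541 and 5485 bp for H3K27ac. IL1B had 2331 and 1718 bp against 2580 and 2506 bp for H3K23su and 1661 and 2432 bp against 3219 and 3525 bp for H3K27ac, and its H3K23su difference turned to −289.5 bp with 25 kb on either side. CXCL8 had 725 and 329 bp against 840 and 1175 bp for H3K23su, a difference that turned to −37 bp in the stronger 50% of each list, and 1682 and 1837 bp against 2037 and 1825 bp for H3K27ac, with overlap. These 3 genes were higher in HCT15-FR for H3K23su by less than the ratio of IL33, except CXCL8, whose ratio of 1.91 rests on at most 3 peaks in a library. As a share of the length covered by each list, the lines overlapped at all 3 for H3K23su. CXCL3 had 4158 and 2621 bp against 4117 and 3924 bp for H3K23su and 4620 and 3619 bp against 6564 and 5108 bp for H3K27ac. CCL20 had 2841 and 2566 bp against 2643 and 1814 bp for H3K23su and 3278 and 3617 bp against 4022 and 3174 bp for H3K27ac, and the lines overlapped in both.

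**Figure D4:**
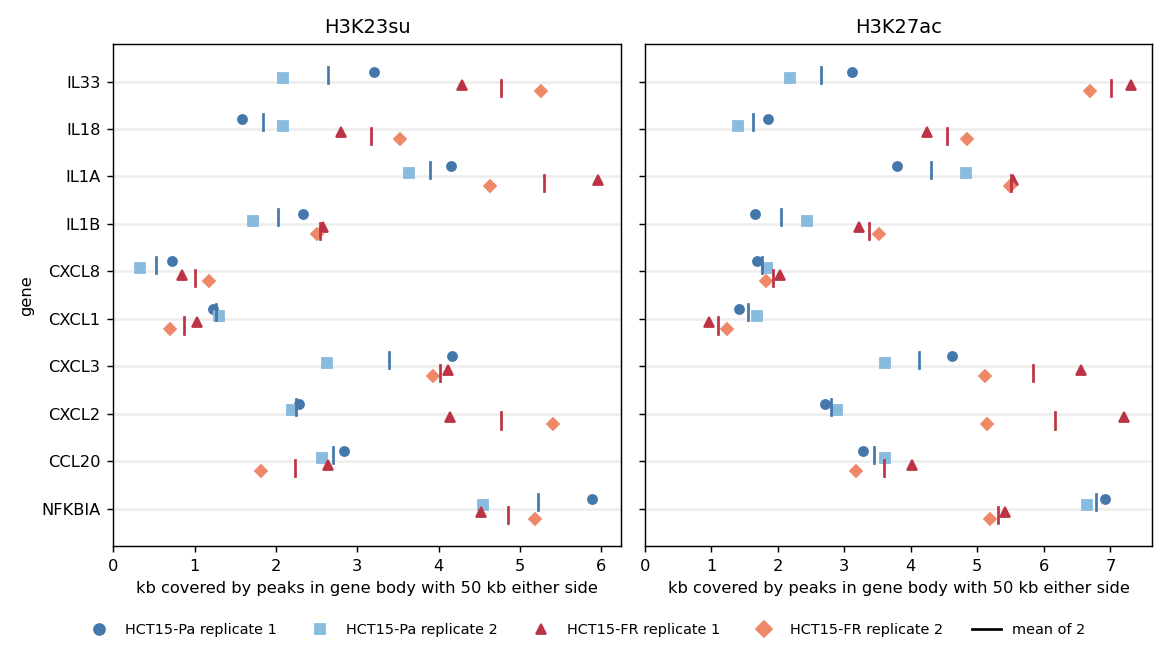
Length covered by peaks in the gene body with 50 kb on either side, in kb, for each gene (rows) and library (symbols), with a vertical tick at the mean of the 2 libraries of a line, H3K23su on the left and H3K27ac on the right. The HCT15-FR symbols lie to the right of the HCT15-Pa symbols at 6 genes in each panel and to the left at CXCL1 in both.

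Of 60 other genes of the pathway, 33 had a TSS peak in all 4 libraries for H3K23su and 33 for H3K27ac. This is 55.0% each, near the 52.5% and 57% of all protein-coding genes. All 13 genes for NF-κB subunits, inhibitors and targets had one for both marks. Of the 22 other chemokines and cytokines, 9 had one for H3K23su and 8 for H3K27ac, and of the 11 receptors and antagonists 1 and 2. Of 14 genes for signalling and processing, 10 had one for each mark. An FR-only H3K23su region lay within 2 kb of the TSS at 2 of the 60 genes (3.33%, against 3.46% of all protein-coding genes), CSF3, which encodes the granulocyte growth factor G-CSF, and NFKB2, which encodes an NF-κB subunit, and a Pa-only region at 1 (1.67% against 2.04%), CXCL5. The CSF3 scores were 4.98 and 6.06 and those of NFKB2 4.81 and 4.72, and NFKB2 also had a shared region there. An FR-only H3K27ac region lay there at 2 genes (3.33% against 2.64%), CXCL9 and LIF, with scores of 4.16 and 5.37 and of 5.42 and 3.75, and a Pa-only region at 3 (5.00% against 2.52%), CXCL5, MYD88 and NFKBIE. MYD88, the adaptor of interleukin-1 receptors, and NFKBIE, an NF-κB inhibitor, each had a shared H3K27ac region beside it. In the wider windows, 34 of the 60 genes had an FR-only H3K23su region and 43 an FR-only H3K27ac region, or 56.7% and 71.7% against 48.6% and 53.4% of all protein-coding genes. A Pa-only region was found at 26 and 21, or 43.3% and 35.0% against 35.6% and 33.9%. Neighbouring genes of a cluster share regions, and no test was made of these counts.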

How the data were processed

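Reads were checked by the authors with FastQC 0.11.6, aligned to hg19 with Bowtie2, filtered with SAMtools to unique proper pairs without duplicates, and passed to MACS2 2.1.2 for peak calling in each library, as broad peaks for H3K27ac. The deposited lists give coordinates and the authors' −log10 P value of each peak, and the scores were not normalised between lists, so the rank of a peak within its own list was used beside them. They hold no read counts, so depth at peak calling is not given in them, and the spike-in DNA named in the labels does not enter them. The study's supplementary read statistics were not used here. Chromosome names and lengths matched GRCh37. Genes came from GENCODE release 44 mapped to GRCh37, with the TSS at the outermost 5′ end of the gene. Peaks that overlapped or touched were merged, and 1 bp of overlap counted a library as having the region. Covered length was tested gene by gene (exact permutation, two-sided), with no adjustment over genes. All other counts are descriptions, given beside the share over all genes or regions where that was computed. It was not computed for ranks at the TSS or for the alternative settings, and is not set beside the marker counts. The genes and lists were chosen with earlier results of these data known. Every one of the 10 genes is named, and of the 60 others those with a line-specific region at the TSS or within a window described. Alternatives were lists of equal length, the stronger 50% of each list, 50% of a region covered, merging within 500 bp, midpoints, other TSSs, 25 kb and 100 kb flanks, each library left out, the replicate number as a block and covered length as a share of the list. The last and the canonical TSS were chosen after the data were seen. The sequence of 1 region is not reported here. Promoters span 250 bases before to 50 after the canonical TSS. Peaks and motif searches were tested on simulated data. Computations used samtools 1.23.1 and pysam 0.24.0 for sequence and, in Python 3.11.15, scipy 1.17.1, pandas 2.3.3 and numpy 2.4.6, with figures from matplotlib 3.10.9.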

Additional observations from a re-analysis of the deposited data

How the results depend on the processing

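The peak lists cannot show how many reads lie under a peak, a region is called by presence in 2 libraries of a line, and 2 libraries against 2 cannot pass 0.05. Among the alternative values of the counts, 91 stayed within 1.5 times the value reported and 35 did not. Among those of the covered length of single genes, 128 moved by less than the spread between replicates and 27 by more. The other 5 changed sign at genes whose lines did not overlap. In all, 11 took the other sign, 5 at genes whose lines did not overlap and 6 at genes whose lines overlapped. The number of genes with a TSS peak in all 4 libraries stayed within 1.5 times under every alternative tried, with values from 4 to 6 for H3K23su and 5 to 7 for H3K27ac. With the stronger 50% of each list, 2 genes had an FR-only H3K23su region and 2 a Pa-only H3K27ac region, the FR-only regions numbered 2 for H3K23su and 5 for H3K27ac and the Pa-only H3K27ac regions 2, and covered H3K23su length was higher at 1 gene. With 50% of a region covered, there were 12 FR-only and 4 Pa-only H3K23su regions, the latter at 2 genes. With 25 kb on either side, 0 H3K23su regions at 0 genes and 2 H3K27ac regions at 2 genes were Pa-only. With 100 kb, H3K23su gave 10 FR-only regions and 3 Pa-only regions at 3 genes, and H3K27ac gave 7 Pa-only regions. As a share of the list, covered length was higher in HCT15-FR at 3 genes for H3K23su, and at 4 for H3K27ac.

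Without 1 library, FR-only regions numbered 10 to 18 for H3K23su and 11 to 20 for H3K27ac, and Pa-only regions 2 to 12 and 4 to 12. The genes with an FR-only region numbered 6 to 8 and 6 to 9, and those with a Pa-only region 2 to 6 and 4 to 6, for H3K23su and H3K27ac. The rule then asks for fewer libraries. Covered length was higher at 6 to 7 genes for H3K23su and 6 to 8 for H3K27ac.

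Where the lines did not overlap, the difference in covered length changed sign at CXCL8 (−37 bp) and CXCL1 (251 bp) for H3K23su in the stronger 50%, at IL1B for H3K23su with 25 kb (−289.5 bp), and at CXCL1 with 100 kb (206.5 bp for H3K23su and 664 bp for H3K27ac), and the cause was not tested. Where they overlapped, it changed sign at CXCL8 for H3K27ac in the stronger 50% (−134.5 bp), at CCL20 for H3K27ac with 100 kb (−186.5 bp) and without HCT15-Pa replicate 1 (−19 bp) or HCT15-FR replicate 1 (−273.5 bp), and for H3K23su at NFKBIA without HCT15-Pa replicate 1 (299.5 bp) and at CXCL3 without HCT15-Pa replicate 2 (−137.5 bp). With the replicate number as a block, the number of genes higher in HCT15-FR in both pairs was 6 for H3K23su and 6 for H3K27ac, as without the block. Nothing in the labels says what a shared replicate number stands for, and with 2 pairs the paired sign test cannot give a p below 0.5.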
